A study of Homo sapiens with 4 samples.

Results

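The short arm of chromosome 12 (12p) was followed along its length in naive and ATO resistant NB4 cells. Members were the non-control array probes that the scanner files place on chromosome 12 of hg19 with a start below 35 Mb and that the scanner marked as well above background in both flasks of the naive line, of the resistant line or of both. The arrays carry 508 probes placed on the arm, and 329 of them met the rule, against 28221 probes tested on the whole array. All 329 had a value, and they stand for 182 named genes, while 80 of the probes carry no gene symbol. Of the probes on the arm, 179 were too dim in both lines and were left out, and a probe that passed only through the line in which it was bright had to differ. The first member starts at chr12:287381 and the last at chr12:34402591.

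NB4 is an established human acute promyelocytic leukemia cell line, and the ATO resistant line is 1 clone of it (NB4-VM-AsR1 in the labels). ATO is arsenic trioxide, a drug used to treat this leukemia. RNA of 2 flasks of each line, all grown in RPMI with serum and the resistant cells kept without ATO for 1 week, was hybridized to 4 one-colour Agilent arrays. A single slide carried all of them, with the naive flasks in the first positions and the resistant flasks in the last, so that line and position cannot be told apart. A single clone is compared with its parent line here, and nothing can be said of other resistant clones.

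Chromosome 12p holds the gene-dense band with GAPDH, TPI1 and CD4, then the natural killer gene complex with its C-type lectin receptors, the bitter taste receptors, ETV6 and CDKN1B, and farther in LDHB. Losses of 12p that take in ETV6 and CDKN1B are known from leukemias, and ETV6 encodes a transcription factor of blood formation while CDKN1B encodes the cyclin-dependent kinase inhibitor p27. The arrays measured RNA only, and DNA copy number was not measured by them.

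A choice of called probes with large differences, with LAG3 as the named gene called higher and AK4 as a probe whose position and gene disagree, read as follows, given as the first 30 bases of their 60, 5′ to 3′, with the hg19 interval that the files give. No base is in capitals since no motif is singled out, and where in its transcript a probe lies was not determined here.
LRP6 (chr12:12273986-12274045, minus strand): cctctgactgcctccaacgtaaaaatgtaa
LRP6, a second probe (chr12:12273600-12273659, minus strand): gtccatctcagagcagcaaaccatagatac
EPS8 (chr12:15774176-15774235, minus strand): ttaaactccattgtttttggcattattcca
RIMKLB (chr12:8925927-8925986, plus strand): gatgatgtgctcattgagtgaacaagggaa
SSPN (chr12:26385695-26385754, plus strand): aatgttttgatttgctttaaaaatggcctt
CACNA2D4 (chr12:1902017-1902076, minus strand): taggctgagacatccaattgctgcatggaa
SLC2A3 (chr12:8072924-8072983, minus strand): actggatgaaataactccttcttgtagtag
LAG3 (chr12:6887406-6887462, plus strand): aagacagtggcgaccaagacgattttctgc
AK4 (chr12:31768907-31768966, minus strand): taacctggacttcaatccacctcatgtaca

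Most of the arm was lower in the resistant line by a small amount. The level of a probe is its log2 signal relative to the 75th percentile of its array, and a difference is the mean of the resistant flasks minus the mean of the naive flasks on that log2 scale. Over the 329 members the median level was -1.83 and -1.66 in the naive flasks and -2.10 and -2.12 in the resistant flasks, so that both resistant flasks lay below both naive flasks. The median difference was -0.33, with quartiles of -0.67 and 0.00, against -0.02 over all probes tested. In all, 246 members were lower and 83 were higher in the resistant line, which makes 74.8% lower against 51.7% of all tested probes. The probes were chosen by position and by being above background, and the arm itself was selected on this same contrast, the resistant minus naive difference, so these values are a description and no test was made of them.

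The size of the difference was modest for most members. Between 0 and -1 on the log2 scale, that is lower by less than 2-fold, lay 208 members (63.2%), against 45.5% of all tested probes. Both resistant values lay below both naive values for 163 members (49.5%), against 28.0% of all tested probes. Both lay above for 26 members (7.90%), against 24.5% of all tested probes. A probe was called changed where limma gave an adjusted p (Benjamini-Hochberg) below 0.05 together with a difference of 2-fold or more. Of the members, 17 were called (5.17%), against 5.27% of all tested probes. Of these, 15 were lower, against a background of 2.97%, and 2 were higher, against a background of 2.30%. Of the 17, 11 were above background and unsaturated on all 4 arrays (3.78% of 291 such members, against 3.42% of all such probes). A further 4 were dim in both resistant flasks and met the rule only through the naive line. With scale normalization 20 members were called lower and 7 higher, together 8.21% against 6.90% of all tested probes. Without the first naive flask 52 members were called (15.8%, against 13.2% of all tested probes) and without the second naive flask 64 (19.5% against 16.1%). Leaving out the first or the second resistant flask gave 7 in each case (2.13%, against 2.63% and 2.59% of all tested probes). In both of these refits SLC2A3, C3AR1, LPAR5, CLEC2B, CLECL1, BHLHE41, CACNA2D4 and EMP1, described as called further on, lost their calls. None was called with normexp background correction, another way to subtract background, or with the methods' t-test after adjustment. An exact two-sided permutation test of 1 probe cannot go below a p of 0.333 with 2 flasks a side, so the calls depend on limma sharing its estimate of spread among probes.

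**Figure D1:**
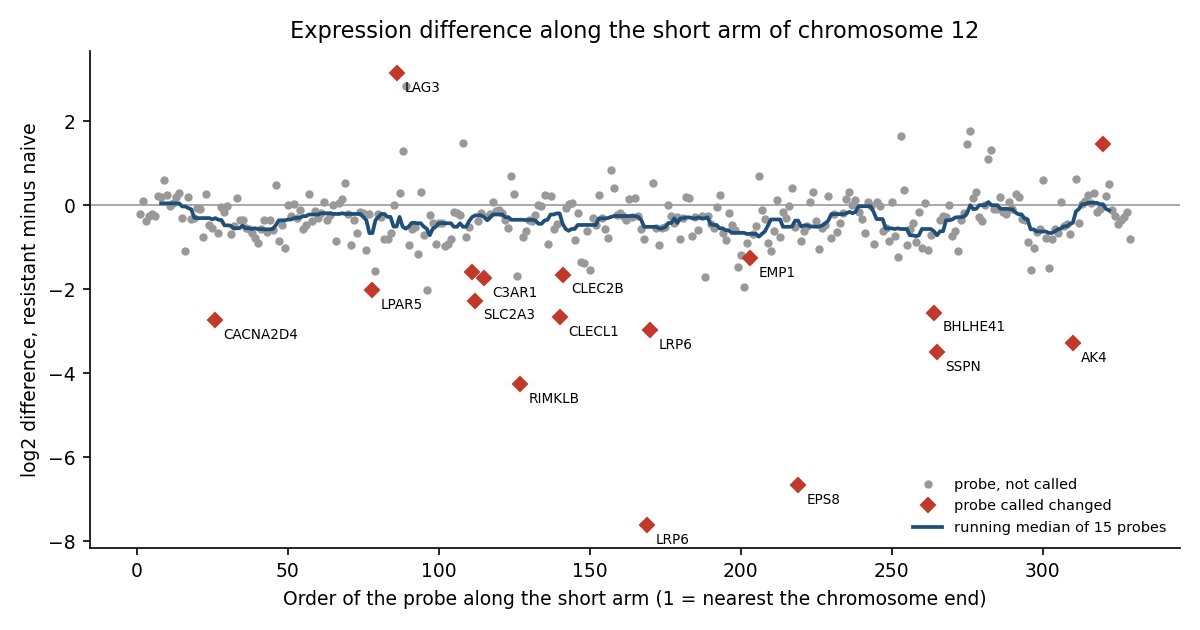
Log2 difference of each of the 329 members, resistant minus naive, against its order along the arm from the chromosome end inward. Grey points are probes not called, diamonds the 17 called probes, and the line is the running median of 15 probes, which lies below 0 at 292 of 315 positions. Called probes lie scattered along the arm, most of them below the line.

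The shift was seen with each pairing of flasks. The median difference over the members was -0.29 and -0.37 for the first resistant flask against the first and second naive flask, and -0.26 and -0.34 for the second resistant flask. Between flasks of the same line it was 0.10 (second minus first naive flask) and 0.02 (second minus first resistant flask). The naive flasks differed more from each other probe by probe, with an SD of the members' log2 differences of 0.82, against 0.38 between the resistant flasks. Probes of different brightness had similar values. With all tested probes cut into 3 equal classes of brightness, for members in the dimmest, middle and brightest class the median difference was -0.34, -0.31 and -0.28, against -0.10, -0.01 and 0.01 over all tested probes of the same class. Restricted to the 291 members that every array measured between background and saturation it was -0.31. GC content of the probe was nearly unrelated to the difference (Pearson's r across probes of 0.05 on the arm and -0.08 over all tested probes, which are not independent replicates).

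Among the 41 chromosome arms with at least 100 tested probes, Y excluded, 12p had the lowest median difference. The long arm of chromosome 9 followed with -0.31 over 714 probes, of which 76.3% were lower, a share above that of 12p. The long arm of chromosome 16 came next with -0.23. The long arm of chromosome 12 itself had a median of -0.10 over 955 probes, with 61.4% lower, and 5p had the highest median with 0.21. The difference between 12p and its neighbours in this order was not tested, and the quartiles of 12p and 9q nearly coincide (-0.67 to 0.00 and -0.62 to -0.02).

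**Figure D2:**
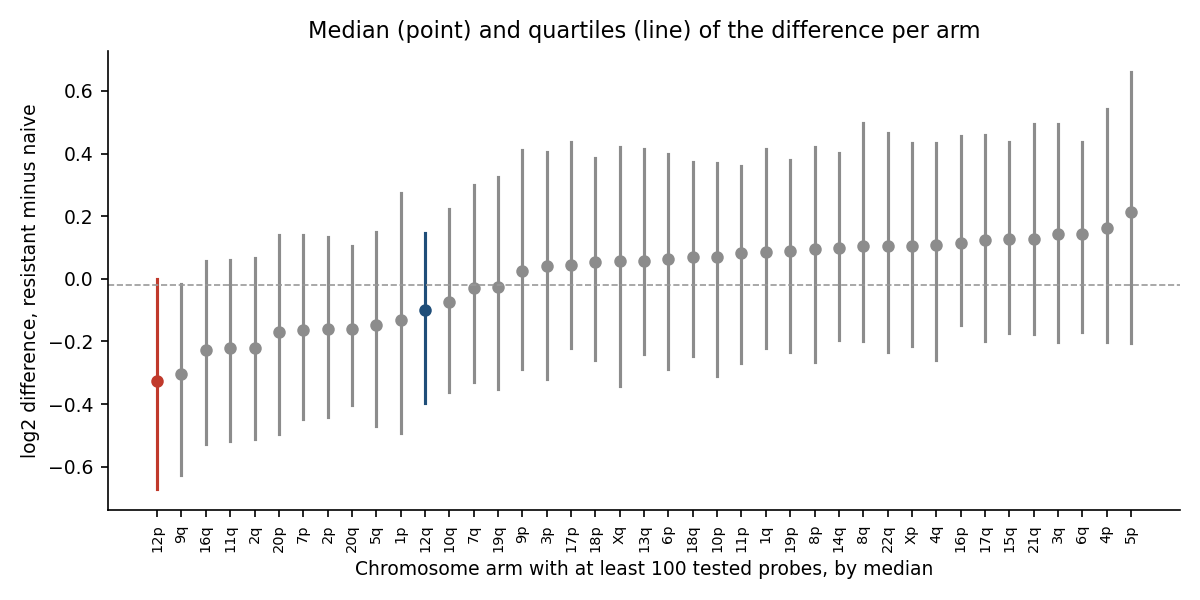
Median log2 difference (point) and quartiles (vertical line), resistant minus naive, for the 41 chromosome arms with at least 100 tested probes, ordered by median. The arm 12p is in red at -0.33, 12q in blue at -0.10, and the dashed line is the median of all tested probes at -0.02.

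The shift ran along the arm. In windows of 5 Mb from the chromosome end inward the median difference was -0.31 over 56 probes, -0.35 over 84 probes, -0.47 over 71 probes, -0.42 over 20 probes, -0.17 over 20 probes, -0.21 over 43 probes and -0.35 over 35 probes. All 7 windows were below 0, and the share of lower probes ran from 65.1% in the sixth window to 81.7% in the third. In the fourth and the fifth window the median difference between the naive flasks was -0.44 and -0.23, as large as that between the lines. With normexp background correction the third window was at 0.025. The second window holds the band around GAPDH and part of the lectin receptors, and the third the other lectin receptors, the bitter taste receptors, ETV6 and CDKN1B.

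**Figure D3:**
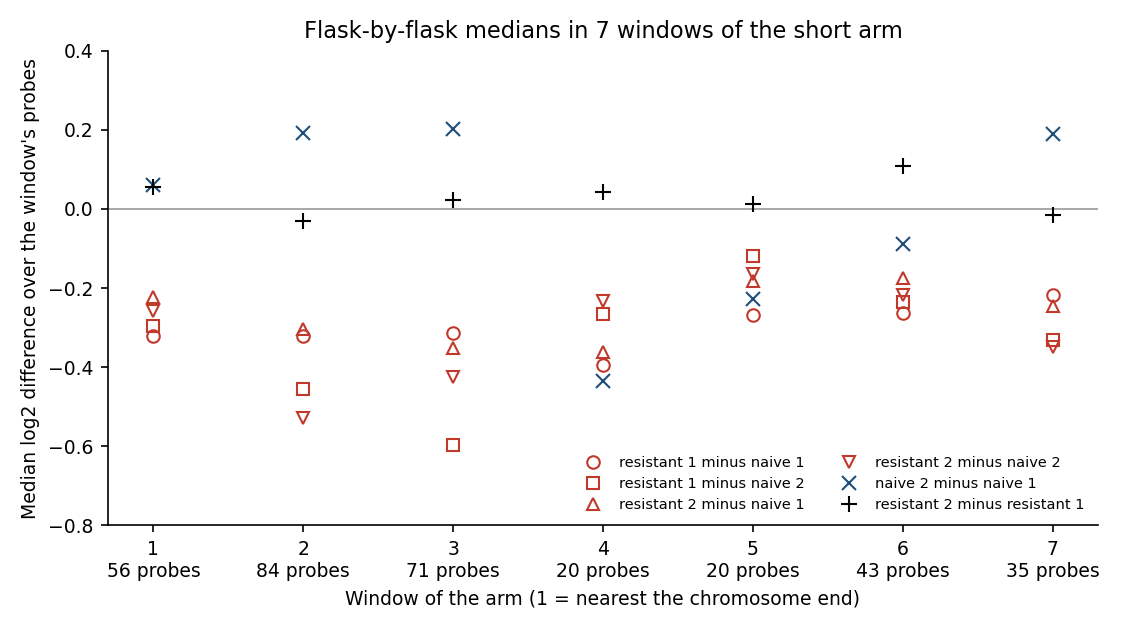
Median log2 difference over the probes of 7 equal windows of the arm, counted from the chromosome end. Red symbols are the 4 pairings of a resistant with a naive flask, crosses the second minus the first naive flask, and plus signs the second minus the first resistant flask. All red symbols lie below 0, from -0.60 to -0.12, while the naive pair reaches -0.44 in the fourth window.

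The running median of 15 probes was lowest, at -0.75, around ATF7IP and highest, at 0.08, around PPFIBP1. The 2 member probes of ATF7IP itself differed by only -0.11 and 0.69. The longest unbroken stretch of lower probes had 15 probes of 15 genes, from TAPBPL to MLF2 (chr12:6566840 to chr12:6857487), with GAPDH, NCAPD2, NOP2 and CHD4 among them. The longest stretch of higher probes had 5 probes and followed right after it, from PTMS to P3H3 (chr12:6879866 to chr12:6948753). Both lengths count small differences. GAPDH differed by -0.15, was saturated on 3 arrays and was at 0.072 with scale normalization, and PTMS differed by 0.0003. Neighbouring genes in the same band thus differed in direction.

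Probes of one gene share their target and are not independent of each other. Of 51 genes with more than 1 member probe, 34 had all probes lower, 5 had all higher and 12 were mixed. The 3 CCND2 probes differed by -1.01 to -0.47 and the 3 TM7SF3 probes by -1.08 to -0.62. Taking the brightest probe per gene, 137 genes were lower and 45 higher, with a median of -0.35. The 3 probes of PPFIBP1, which encodes liprin beta 1, were all higher, by 1.10 to 1.45, and none was called.

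Signalling genes held the members with the largest differences. Of 12 measured list members 9 were lower and 3 higher, with a median difference of -0.39. Called lower were 2, against 2.97% of all tested probes. LRP6 encodes a coreceptor for Wnt ligands. The probe starting at chr12:12273986 read -3.20 and -2.95 in the naive flasks and -6.36 and -5.73 in the resistant flasks. On the probe starting at chr12:12273600 the naive flasks read -1.29 and -0.83, and neither resistant flask was well above background, with -8.57 and -8.78. Both probes fell, without overlap between the lines. The former fell by 2.97 on the log2 scale (standard error 0.30, adjusted p = 0.0065) and was above background in 1 of the resistant flasks only. The latter fell at least 42.6-fold, and its adjusted p of 0.000737 comes from the fit with the dim values included.

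EPS8, an adaptor of receptor tyrosine kinase signalling to the actin skeleton, read -1.85 and -2.02 in the naive flasks. In the resistant flasks it read -8.55 and -8.65, not well above background. EPS8 met the rule on background through the naive line only, and it fell at least 23.2-fold. Its adjusted p of 0.000721 comes from the fit with the dim values included and does not belong to that bound. The phosphatase PTPN6 (-0.43), the RAS-association gene RASSF8 (-0.71) and the calcium channel ITPR2 (-0.36) were also lower and not called. The kinase WNK1 and the exchange factor FGD4 lay on the other side with 0.29 and 0.51, without being called.

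Genes of glucose and lactate metabolism were lower in 5 of 6 cases, with a median of -0.38. Called lower was 1, against 2.97% of all tested probes. SLC2A3, the neuronal-type glucose transporter GLUT3, read -0.96 and -0.81 in the naive flasks and -3.08 and -3.23 in the resistant flasks. Its 2 groups lay far apart, and SLC2A3 fell by 2.27 (standard error 0.22, adjusted p = 0.00622). Its close relative SLC2A14 has no probe placed on the arm, and signal shared between them could not be split. ENO2, a glycolytic enolase, read -6.05 and -3.44 in the naive flasks, so far apart that the difference was not called (adjusted p = 0.275), and it was not well above background in the resistant flasks, at least 3.31-fold lower. TPI1, triosephosphate isomerase, read 3.20 and 2.74 against 2.33 and 2.59, a difference of -0.51 that was not called. GAPDH, a glycolytic dehydrogenase, was saturated on 3 arrays, and its difference of -0.15 changed sign with scale normalization. LDHB, a lactate dehydrogenase, was saturated on all 4 arrays, and its difference of 0.08 changed sign with normexp background correction.

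Cell cycle and DNA repair genes were lower in 9 of 9 cases, with a median of -0.57 and none called. In 8 of these the resistant values lay below without overlap, as for 49.5% of the arm's members and 28.0% of all tested probes. CCND2 (cyclin D2) read 4.24 and 3.90 in the naive and 3.19 and 2.93 in the resistant flasks on its brightest probe, a difference of -1.01 (standard error 0.25, adjusted p = 0.107). CDCA3, a trigger of mitotic entry, read 0.99 and 0.27 against -0.32 and -0.30. The condensin subunit NCAPD2 differed by -0.66, the helicase DDX11 by -0.62, RAD51AP1 by -0.57, C12orf32 (now RHNO1) by -0.55, the mitotic transcription factor FOXM1 by -0.35 and CDKN1B by -0.25. No single difference passed the test.

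**Figure D4:**
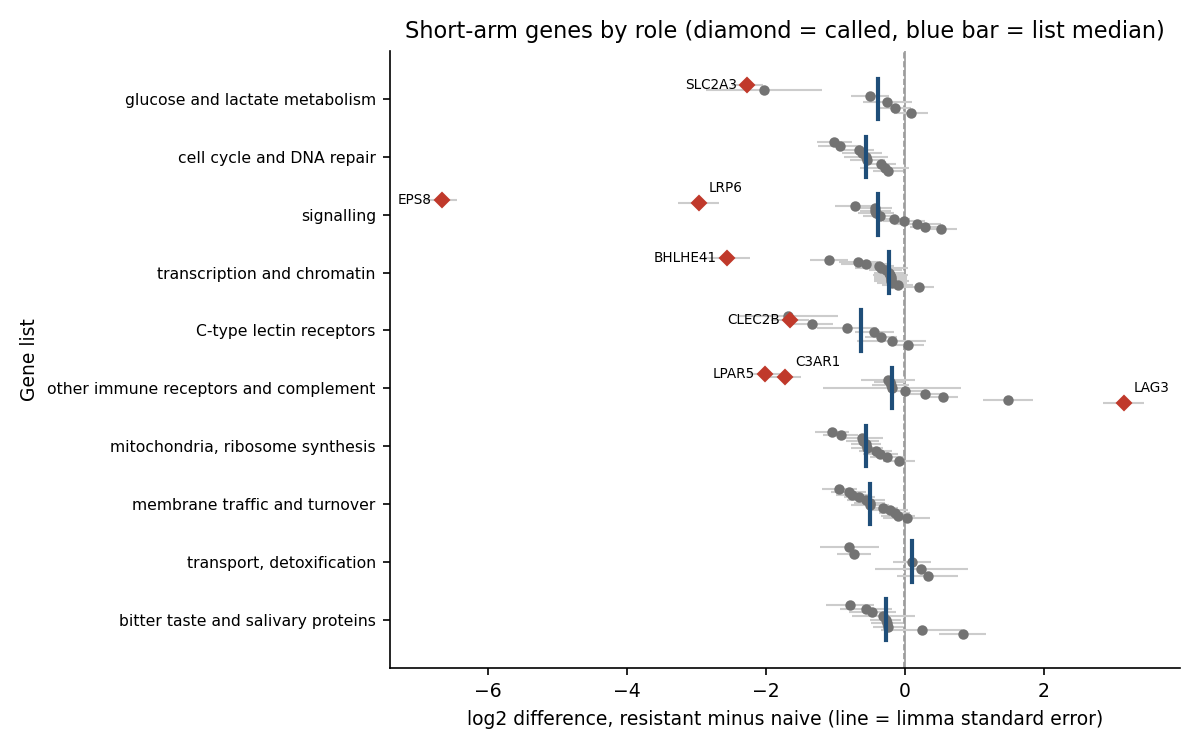
Log2 difference of each measured member of 10 lists of 12p genes, resistant minus naive, with its limma standard error as a horizontal line. Diamonds are called genes, the blue bar is the median of the list and the dashed line the median of all tested probes. The medians of 9 lists lie below 0, from -0.64 to -0.19, and that of transport and detoxification lies at 0.10.

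Genes for mitochondria, ribosome synthesis and RNA helicases were lower in 10 of 10 cases, with a median of -0.56, none called, and 9 lower without overlap, against 49.5% of the arm's members and 28.0% of all tested probes. NOP2, a methyltransferase of ribosomal RNA, read 2.19 and 2.57 in the naive flasks and 1.35 and 1.30 in the resistant flasks, a difference of -1.05 (standard error 0.24, adjusted p = 0.0900). EMG1, which acts in maturation of the small ribosomal subunit, read 4.31 and 3.92 against 3.09 and 3.29. STRAP (-0.62), the exon junction gene MAGOHB (-0.61), the helicase DDX47 (-0.55), ETFRF1 (-0.56), the prohibitin PHB2 (-0.42), the mitochondrial ribosomal protein gene MRPL51 (-0.36) and the mitochondrial fission gene DNM1L (-0.26) lay on the same side. PHB2 and MRPL51 were saturated on 2 and 1 of the arrays.

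Membrane traffic and protein turnover genes were lower in 11 of 12 cases, with a median of -0.51 and none called. VAMP1, a vesicle fusion protein, read -3.28 and -3.41 in the naive flasks and -4.11 and -4.47 in the resistant flasks, a difference of -0.94 (standard error 0.25, adjusted p = 0.118). COPS7A, a subunit of the signalosome, differed by -0.81. M6PR, the mannose 6-phosphate receptor, differed by -0.76, GOLT1B by -0.66, the deubiquitinase USP5 by -0.56, the peroxisomal import receptor PEX5 by -0.51 and DENND5B by -0.50. In 9 of the 12 the resistant values were lower without overlap, against 49.5% of the arm's members and 28.0% of all tested probes.

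Transcription and chromatin genes were lower in 14 of 15 cases, with a smaller median of -0.23. Called lower was 1, against 2.97% of all tested probes. BHLHE41, a repressor of the circadian clock, read -3.57 and -2.79 in the naive flasks and -5.78 and -5.69 in the resistant flasks. It fell by 2.56 (standard error 0.32, adjusted p = 0.0140). The histone gene H2AJ read 1.76 and 1.22 against 0.36 and 0.45, and its difference of -1.09 was not called (adjusted p = 0.109). ETV6 read 1.55 and 0.65 against 0.52 and 0.54, a difference of -0.57 that is smaller than the gap between its naive flasks. TULP3 (-0.67), ARNTL2 (-0.38), the demethylase gene KDM5A (-0.21) and the remodelling helicase CHD4 (-0.20) lay on the same side. CREBL2 was the list member on the other side, at 0.20 on its brightest probe, and the mean over its probes was -0.057.

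C-type lectin receptors of the natural killer complex were mostly too dim to measure. Of 25 genes 20 have a probe on the arm and 8 were measured, of which 7 were lower, with a median of -0.64. Called lower was 1, against 2.97% of all tested probes. CLEC2B, an activation-induced lectin, read -3.25 and -3.80 in the naive flasks and -5.18 in both resistant flasks. It fell by 1.65 (standard error 0.27, adjusted p = 0.0346). CLEC4E, the receptor Mincle, read 0.73 and -1.48 in the naive flasks against -1.98 and -2.14, and with that gap within the naive line its difference of -1.68 was not called. KLRA1P, a lectin pseudogene, was not well above background in the resistant flasks, at least 1.95-fold lower and not called (adjusted p = 0.0848). KLRC1 (-0.84), CLEC2D (-0.44) and KLRG1 (-0.34) lay on the same side.

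Other immune receptors and complement genes pointed both ways, with 6 of 11 lower and 5 higher and a median of -0.19. Called lower were 2 and called higher 1, against 2.97% and 2.30% of all tested probes. LAG3, an inhibitory receptor that binds class II molecules, read -5.86 and -5.23 in the naive flasks and -2.46 and -2.35 in the resistant flasks. LAG3 rose by 3.14 (standard error 0.29, adjusted p = 0.00524) and was the only named gene of the arm called higher. Its neighbours on the inner side were CD4 with 0.29, GPR162 with 1.29 and P3H3, a prolyl hydroxylase family gene listed as LEPREL2, with 2.85. On the outer side lay PTMS with 0.0003 and MLF2 with -0.67, and the named gene past P3H3 was CDCA3 with -0.94. P3H3 read -3.71 and -1.30 in the naive flasks and 0.30 and 0.39 in the resistant flasks, without overlap, but its naive flasks differed so much that it was not called (adjusted p = 0.130).

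LPAR5, a receptor for lysophosphatidic acid, read -3.76 and -3.79 in the naive flasks and -5.72 and -5.86 in the resistant flasks, and it fell by 2.02 (standard error 0.22, adjusted p = 0.00837). C3AR1, the receptor for complement C3a, read -0.71 and -0.99 against -2.55 and -2.62 and fell by 1.73 (standard error 0.23, adjusted p = 0.0172). Both genes were separated between the lines by far more than their flasks differed. C1RL, a complement protease relative, read -6.13 and -5.19 against -4.26 and -4.10, higher by 1.48 and not called (adjusted p = 0.102). CD27 (0.54) and TNFRSF1A (-0.22), both of the tumour necrosis factor receptor family, were not called either.

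Transport and detoxification genes were the one list with a median above 0, at 0.10, with 2 of 5 lower and none called. That median is the dim SLC6A13, which read -5.64 and -5.18 against -5.45 and -5.18, with overlap between the lines. B4GALNT3 (0.23) was above background in 1 of the resistant flasks only. BCAT1, a branched-chain aminotransferase, read 4.12 and 4.40 in the naive flasks and 3.39 and 3.65 in the resistant flasks, a difference of -0.74 that was not called. LPCAT3 differed by -0.80. MGST1, a microsomal glutathione transferase, read 2.96 and 1.71 in the naive flasks against 2.63 and 2.69, so that its difference of 0.33 lies within the spread of the naive flasks. Without the second naive flask the MGST1 difference was -0.30. Bitter taste receptors and salivary proline-rich protein genes were measured for 9 of 21, with 7 lower and a median of -0.28. Among them TAS2R14 differed by -0.79, PRB3 by -0.28 and TAS2R50 by 0.83, and none was called.

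Further genes outside the lists were named by the size of their difference. SSPN, which encodes sarcospan of the dystrophin complex, read -2.06 and -1.75 in the naive flasks and -5.48 and -5.32 in the resistant flasks, and it fell by 3.49 (standard error 0.24, adjusted p = 0.00219). CACNA2D4, an auxiliary subunit of calcium channels, read 0.82 and 1.70 against -1.55 and -1.38 and fell by 2.73 (standard error 0.35, adjusted p = 0.0146). CLECL1, a lectin-like gene, read -1.66 and -3.05 against -4.94 and -5.11 and fell by 2.67 (standard error 0.48, adjusted p = 0.0448). These genes were chosen among those without overlap between the lines, so the lack of overlap follows from the choice. CLECL1 was the one with the widest gap between naive flasks.

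RIMKLB, a ligase that joins glutamate to small acids, read -4.51 and -4.36 in the naive flasks and was not well above background in the resistant flasks (-8.58 and -8.82). It fell at least 4.10-fold, and its adjusted p of 0.00124 comes from the fit with the dim values included. EMP1, a membrane protein gene, read -2.08 and -2.01 against -3.23 and -3.39 and fell by 1.26 (standard error 0.22, adjusted p = 0.0416). GSG1 and ACRBP, genes best known from the testis, differed by -1.94 and -1.57 and were not called. GSG1 read -0.66 and -3.68 in its naive flasks. Of the unnamed probes, the transcript probe ENST00000431042 fell by 1.59 (adjusted p = 0.0294). The probe A_32_P9127, not well above background in the naive flasks, met the rule only through the resistant line and was at least 1.73-fold higher. That bound is below 2-fold, and its call (adjusted p = 0.0447) rests on the fit with its dim naive values included. The other genes with the highest differences without overlap were AMN1 with 0.63 and IRAG2 (listed as LRMP) with 0.36, and MANSC1, not well above background in the naive flasks, was at least 1.09-fold higher.

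**Figure D5:**
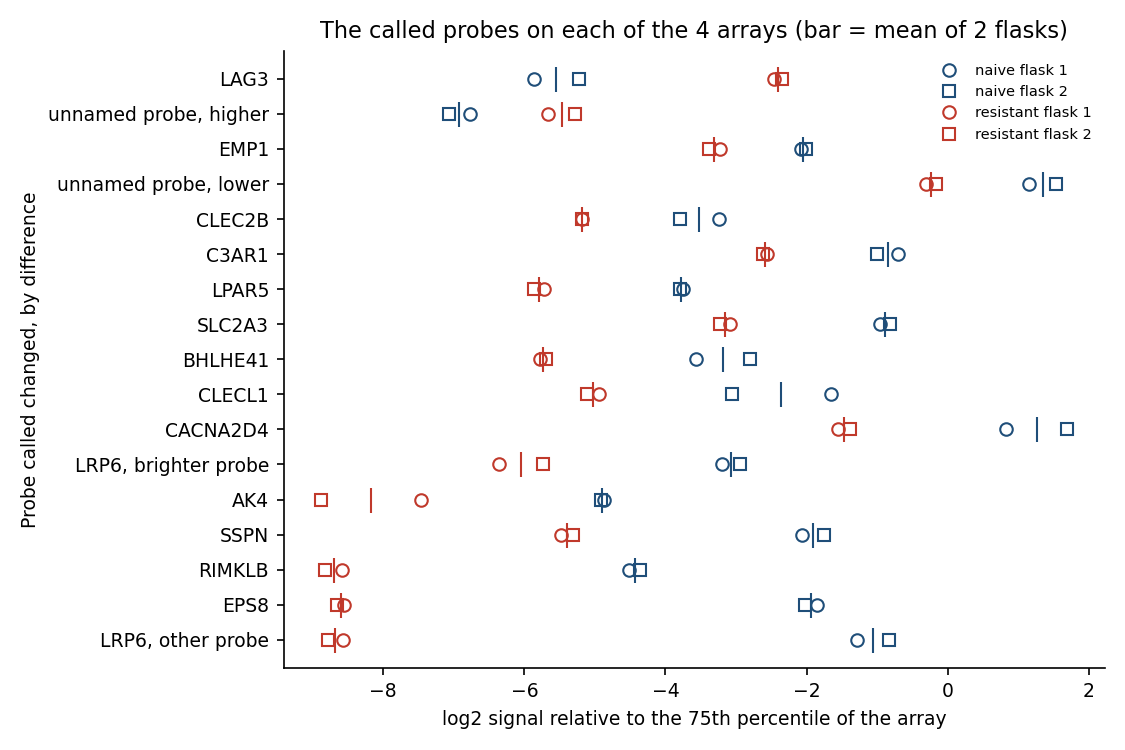
Level of the 17 called probes on each array, as log2 signal relative to the array's 75th percentile, in naive (blue) and resistant (red) flasks, with the mean of 2 flasks as a vertical bar. The rows were chosen because they were called, and the red and blue symbols do not overlap in any of them. LAG3 and 1 unnamed probe are the rows in which red lies to the right.

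Position on the array and gene did not always agree. Of the members, 229 matched a RefSeq transcript, and 14 of these, of 9 genes, belong to a gene that RefSeq (GRCh38.p14) places on another chromosome. The called probe for AK4 (listed as AK3L1), a mitochondrial adenylate kinase, is one of them, since RefSeq places AK4 on chromosome 1. It read -4.88 and -4.92 in the naive flasks and -7.47 and -8.88 in the resistant flasks, not well above background, at least 2.98-fold lower. Its adjusted p of 0.0239 comes from the fit with the dim values included. ALG1, whose RefSeq gene also lies on another chromosome, differed by 0.70. Over the 215 members whose RefSeq gene lies on chromosome 12 the median difference was -0.35 and 76.7% were lower.

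At the inner edge of the arm the last members were PKP2 with -0.27, ALG10 with -0.15 and an unnamed probe with -0.81. The first probes beyond 35 Mb were 2 probes of ALG10B with -0.31 and -0.26 and an unnamed probe with 0.04. ALG10 read -1.50 and -3.24 in its naive flasks, and both PKP2 and ALG10 turned direction with normexp background correction, so these values set no border between the arms.

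The label of the cells was checked against markers. Of 6 promyelocyte genes, 5 were above background on all 4 arrays, with MPO saturated on 4 and CTSG on 2. ELANE was above background in 1 naive and both resistant flasks. Of 13 markers of other cell types, 4 were above background on all arrays and 6 on none. The granule protein genes AZU1 and ELANE were called higher in the resistant line, by 1.17 and 2.49. PRTN3 (2.39), CTSG (0.78) and MPO (0.06) were higher and CD33 (-0.29) lower, none of them called. The T cell gene CD3D read 0.70 and 1.16 in the naive flasks and was not well above background in the resistant flasks. CD3E, the other T cell gene, was above background on all 4 arrays, with -4.34 and -4.05 against -4.24 and -4.17, a difference of -0.01. The summed signal of these 13 markers, as a multiple of the 75th percentile, was 3.93 and 4.59 in the naive and 2.79 and 2.98 in the resistant flasks, against 130.0 and 114.4 and 151.6 and 182.3 for the promyelocyte genes. The part of these in the result was not tested, and fewer cells of a type and less RNA per cell cannot be told apart. Of the 508 probes placed on the arm, 330 and 343 were above background in the naive flasks against 317 and 322 in the resistant flasks.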

How the data were processed

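Per the labels and the files, 4 one-colour Agilent arrays were extracted by the authors with Feature Extraction 10.5.1.1, and the deposited processed signal is an intensity after background subtraction. A second deposited table holds log2 values that the authors had shifted to each array's 75th percentile in GeneSpring GX. Here, intensities were put on the log2 scale in R 4.3.3 after outlier spots were dropped, repeated spots were averaged, and each array was shifted to its own 75th percentile. On every array these values correlated with the deposited log2 values at a Pearson's r of 0.9998 or more across probes. The fit took the 28221 probes of the array that met the same rule on background as the members. limma 3.58.1 (lmFit, eBayes) compared the lines, with p adjusted over all of them by Benjamini and Hochberg. The study's methods call the flasks independent, and p-values measure only the spread between these flasks. The number of arrays limits the precision. For a probe dim throughout a line, the fold is a lower bound: the dim side was set, per array, to the lowest signal that counted as well above background, or to the probe's own where higher. The adjusted p of such a probe comes from the fit on the values as measured and does not test the bound.

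The members, gene lists and tests were chosen with earlier results of these data known. A gene was given by its brightest probe, by the mean of the 4 arrays. Named genes were the 10 highest and 10 lowest differences among genes measured on all arrays without overlap, the 3 largest lower bounds in each direction (1 gene was found higher), list members, and the 3 probes on each side of the inner edge. TM7SF3, ACRBP, EMP1, AK4 and the unnamed called probes were named after their values were seen. Symbols came from RefSeq accessions. The fits were tested on simulated data in which spread was shuffled among probes, so any link of spread to brightness was left out. Alternatives were normexp background correction (offset 50), normalization by quantiles, by scale or by a median shift, other dim filters, the deposited table, an intensity trend, the methods' t-test, a replicate block, each flask left out, and the mean over a gene's probes. Normexp with local backgrounds over 100 reset was chosen after seeing the data. The clone is NB4-EV-AsR1 in the methods and NB4-VM-AsR1 in the labels, taken here as one.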

Additional observations from a re-analysis of the deposited data

How the results depend on the processing

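The arm's median difference stayed below 0 in all 14 alternatives that give it, from -0.36 to -0.045, and relative to the median of all tested probes it ran from -0.33 to -0.17. It moved most with normexp background correction, to -0.045 (-0.17 relative to all tested probes, whose own median was 0.13). With bright local backgrounds reset it was -0.19 (-0.21 relative), with no filter on dim probes -0.23 (-0.17 relative) and with scale normalization -0.24. The windows, from the chromosome end inward, moved with normexp to -0.019, -0.16, 0.025 and -0.14, and for those starting at 25 and 30 Mb to -0.00094 and -0.020. The window starting at 20 Mb was at -0.042 with normexp and at -0.0097 with the mean over a gene's probes. With local backgrounds reset the windows starting at 0, 10, 15 and 30 Mb were -0.14, -0.20, -0.31 and -0.11, with no filter those starting at 10 and 15 Mb -0.25 and -0.22, and with scale normalization those starting at 0 and 15 Mb -0.21 and -0.31. The cause was not tested.

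The number of members called was 17 in the main setting. It was 0 with normexp and 0 with the methods' t-test once adjusted, where no probe of the array was called, none higher and none lower. At an unadjusted p below 0.05 they gave 10 and 50 members, and the share over all tested probes is not given here. Above background on all 4 arrays, with fewer probes tested, gave 9 (2.99%, against 2.93% of all tested probes), of which 8 were lower and 1 higher. Scale normalization gave 27 (8.21% against 6.90%), of which 7 were higher. Quantile normalization gave 15 (4.56% against 4.43%), of which 1 was higher. The replicate number as a replicate block gave 15 (4.56% against 4.87%), all among the 17, of which 1 was higher. The numbers share no more than a label, since only 2 flasks carry each, and the correlation of the flasks' deviations was 0.12 over all tested probes. Leaving out each flask in turn gave 7 to 64 called members (6 to 49 lower and 1 to 15 higher), the most without the second naive flask, while 2.59% to 16.1% of all tested probes were called in these refits. The arm's median then ran from -0.36 to -0.27 (-0.33 to -0.27 relative to all tested probes). In the same refits the windows ran, in order, from -0.33 to -0.19, -0.44 to -0.26, -0.51 to -0.35, -0.42 to -0.28, -0.23 to -0.11, -0.28 to -0.20 and -0.33 to -0.24. Of the called genes, CLECL1 lost its call in 10 of 17 alternatives, EMP1 in 9, CLEC2B in 7, BHLHE41 and LPAR5 in 5, SLC2A3, C3AR1 and CACNA2D4 in 4 and SSPN and LAG3 in 2. Of 16 alternatives that give a value, AK4 lost it in 4, RIMKLB in 3 and EPS8 and LRP6 in 2. With normexp the differences of LPAR5, CLEC2B and BHLHE41 were -0.17, -0.16 and -0.48.

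Of the named genes, directions turned for GAPDH with scale normalization (0.072), for LDHB, ALG10 and PKP2 with normexp (-0.018, 0.15 and 0.23), for PKP2 also with local backgrounds reset (0.036), and for CREBL2 with the mean over its probes (-0.057). With each flask left out in turn, LDHB ran from -0.064 to 0.23, MGST1 from -0.30 to 0.95, PKP2 from -0.60 to 0.057 and ALG10 from -1.02 to 0.72.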
